A study of Mus musculus with 24 samples.

Results

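Interferon-stimulated genes are the genes that cells switch on when an interferon, a cytokine released on viral infection, binds its receptor. A list of 42 such mouse genes was followed here by symbol through the deposited count table of 55487 genes, over 8 groups of 3 libraries each. All 42 have a row in the count table, 41 have one in the TPM table (Cmpk2 does not), and 40 had enough counts to be tested (Zbp1 and Cmpk2 did not).

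The libraries are bulk RNA-seq of Myc-CaP, a cell line from a mouse prostate carcinoma driven by a human MYC transgene under a probasin-derived promoter, so every group, DMSO included, overexpresses MYC. Cells of this 1 line were kept for 6 days in medium renewed every 3 days. Tested groups received 500 nM etoposide (a topoisomerase II poison), 500 nM alisertib (an Aurora A kinase inhibitor), 3.75 µM docetaxel (which stabilises microtubules), 500 nM PF-06873600 (an inhibitor of several cyclin-dependent kinases), 1 µM palbociclib (a cyclin-dependent kinase inhibitor of narrower range) or 500 nM Nutlin (which frees p53 from MDM2). A further group labelled T/P is read from the treatment protocol as 25 nM trametinib, a MEK inhibitor, with 1 µM palbociclib. DMSO, the solvent, was the reference in each case. The labels place every library in the same batch and do not say whether libraries are separate cultures, so p-values measure the spread between libraries, which may be technical.

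Type I interferons signal through the kinases JAK1 and TYK2 to a complex that contains STAT2 and IRF9 and binds the interferon-stimulated response element in promoters. The products include sensors of foreign RNA, enzymes that degrade or mark it, proteins that block viral entry and budding, and negative regulators that shut the response off. In tumour cells the same genes are known to be switched on by DNA or RNA in the cytosol, with or without infection.

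Total counts ranged from 21260781 to 28318784 in 23 libraries, and docetaxel library 1 held 69757257. Levels are given as CPM, the count as a share of the library's total after scaling by TMM factors, and TPM is used wherever 2 genes are compared. The prostate lineage marker Hoxb13 averaged 17.7 ± 1.77 CPM with etoposide and 34.6 ± 0.328 CPM in DMSO (SD, n = 3 each). The epithelial marker Epcam had 1 count with etoposide and 0 in DMSO, and the 5 epithelial markers summed to 10.2 to 12.5 CPM with etoposide and 106 to 117 CPM in DMSO, most of it from the keratins. The 7 leukocyte markers summed to 80 counts with etoposide, 67 with alisertib and 222 with docetaxel, 5 to 22 with the other 4 treatments and 1 in DMSO, with the defining gene Ptprc at 3 counts with etoposide and 1 in DMSO. The 3 endothelial markers summed to 81, 82 and 235 counts with etoposide, alisertib and docetaxel, 6 to 28 with the other 4 treatments and 3 in DMSO, where Cdh5 and Kdr were at 0. In the edgeR test described below, 3 epithelial markers were tested. Of these, 2 fell with each of the 7 treatments, while 1 rose with etoposide and 1 with docetaxel. In the same test, 1 leukocyte marker other than Ptprc was tested, and it rose with etoposide, alisertib and docetaxel. The 1 endothelial marker tested rose with those treatments and with PF-06873600. The 4 fibroblast markers summed to 17.3 to 24.7 CPM with etoposide and 13.5 to 22.001 CPM in DMSO, with overlap. Their sums lay wholly above DMSO with alisertib (27.6 CPM or more), docetaxel (26.1 CPM or more) and PF-06873600 (24.78 CPM or more). With palbociclib, T/P and Nutlin they overlapped DMSO. All 3 tested fibroblast markers rose with alisertib and docetaxel, 2 with etoposide and 1 with PF-06873600, and 1 fell with Nutlin. Col1a2 and Dcn were at 0 in DMSO. Col1a1 (61 counts with etoposide, 6 in DMSO) and Dcn (39 and 0) rose with etoposide, alisertib and docetaxel (edgeR adjusted p = 0.000311 and 0.000257 with etoposide). The part that other cell types or the loss of keratins play in the results was not tested. In bulk RNA, more expressing cells and more RNA per cell cannot be told apart.

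The windows printed here show the motif after which the response element is named, as found in promoters of the members. RefSeq promoters (250 bases before to 50 after each start, GRCm38.p6, the same build as the mm10 of the counts) were found for 33 of the 42 members. The response element was searched as GAAA, any 2 bases and GAAA again, or on the other strand as TTTC, any 2 bases and TTTC, and overlapping matches were allowed. It was present in 16 of the 33 members (48.5%), against 1079 of 27025 genes (3.99%) and 3.44% of 32851 promoters. The related motif TTCNNNGAA, the letters of the gamma-activated site, was found in 6 of 33 members (18.2%) and 9.55% of genes. A match is a run of letters, not a measured binding site, and 9 members had no promoter entry (Usp18, Oas2, Dhx58, Zbp1, Mx2, Rtp4, Parp9, Parp14 and Ifi27). Windows are printed for 10 of the 16 members with a match, chosen to show how it is repeated or shared, with the matched letters in capitals and 20 bases on each side, cut at the start of transcription.
Isg15: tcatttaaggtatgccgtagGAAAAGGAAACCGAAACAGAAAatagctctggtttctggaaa
Ifit1: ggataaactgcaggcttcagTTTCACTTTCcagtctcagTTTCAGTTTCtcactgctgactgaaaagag
Ifit3: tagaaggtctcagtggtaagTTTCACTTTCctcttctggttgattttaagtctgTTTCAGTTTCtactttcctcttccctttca
Ifit3b: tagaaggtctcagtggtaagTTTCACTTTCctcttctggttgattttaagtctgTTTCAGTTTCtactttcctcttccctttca
Oas1a: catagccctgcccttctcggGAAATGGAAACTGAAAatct
Gbp3: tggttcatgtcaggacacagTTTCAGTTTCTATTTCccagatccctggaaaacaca
Apol9a: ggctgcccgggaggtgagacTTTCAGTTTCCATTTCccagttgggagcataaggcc
Apol9b: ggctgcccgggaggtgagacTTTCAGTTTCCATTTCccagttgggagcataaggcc
Bst2: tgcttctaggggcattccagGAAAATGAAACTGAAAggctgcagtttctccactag
Stat2: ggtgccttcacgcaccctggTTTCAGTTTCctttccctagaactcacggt

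The Isg15 window, at chr4:156200855-156200916 on the minus strand, held 3 overlapping matches, and those of Ifit1 (chr19:34640765-34640833, plus strand), Oas1a (chr5:120907526-120907565, minus strand), Gbp3 (chr3:142559979-142560034, plus strand) and Bst2 (chr8:71537567-71537622, minus strand) held 2 each. The windows of Ifit3 (chr19:34583353-34583436, plus strand) and its neighbour Ifit3b (chr19:34607749-34607832, plus strand) were identical over 84 bases. Those of the paralogs Apol9a (chr15:77411104-77411159, minus strand) and Apol9b (chr15:77729015-77729070, plus strand) were identical over 56 bases. Stat2 (chr10:128270256-128270305, plus strand) held 1 match, 222 bases before its start. Of the 16 members with the motif, all 16 were tested and passed the threshold upward with etoposide, at a median log2 fold change of 4.04, against 14 of 16 tested members without it, at a median of 2.12, and 8 of 8 tested members with no promoter entry, at a median of 3.83 (27.7% of all genes rose). The members with the motif also had the lower median level in DMSO, 0.442 against 2.49 CPM, and the part of that level in the difference was not tested.

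**Figure D1:**
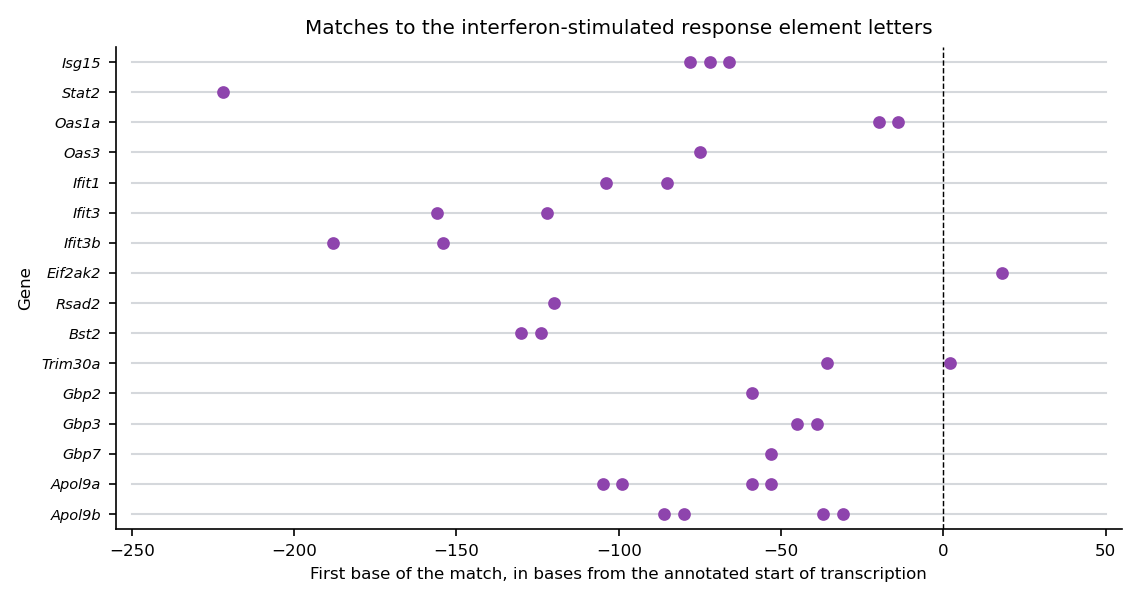
Position of each match to the interferon-stimulated response element letters in the promoters of the 16 members that hold one, in bases from the annotated start (dashed line, where 0 is the first transcribed base). Each dot is the first base of a match and each grey line the 300 bases searched, with the matches of Apol9a, Apol9b and Trim30a drawn from 2 annotated starts each; most matches lie upstream of the start, and those of Eif2ak2 and 1 of those of Trim30a lie after it.

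With 6 of the 7 treatments at least 22 of the 40 tested members rose, and both the number and the median change were highest with etoposide. With etoposide 38 of the 40 tested members passed the threshold upward (edgeR quasi-likelihood test, Benjamini-Hochberg adjusted p under 0.05) and 0 downward, where 27.7% of all 15527 genes tested rose and 26.9% fell. Their median log2 fold change was 3.32, or 3.29 with the 3 members that had 0 counts in DMSO set at their lower bound, against 0.02 for all genes. With alisertib 33 rose and 0 fell (27.8% and 26.1% of all genes), at a median of 2.21. With docetaxel 33 rose and 0 fell (26.5% and 22.5% of all genes), at a median of 1.97, or 1.73 at the bound. With PF-06873600 28 rose and 0 fell (17.9% and 14.1% of all genes), at a median of 1.91, or 1.54 at the bound. Fewer members rose with the other 3 treatments.

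With palbociclib 23 rose and 1 fell (18.5% and 17.4% of all genes), at a median of 0.93, or 0.87 at the bound. With T/P 22 rose and 0 fell (15.1% and 14.6% of all genes), at a median of 1.00. With Nutlin 2 rose and 1 fell (8.02% and 11.4% of all genes), at a median of 0.04, or 0.01 at the bound, near the all-gene median of 0.00. These 7 comparisons share the DMSO libraries, so their counts are not independent of each other. A member could enter the test through a group in which it was high: 19 of the 40 did not reach the count minimum in all 3 DMSO libraries, against 21.2% of all genes tested, and 2 reached it in 3 libraries only with the etoposide libraries counted. Scaling by total counts alone moved the all-gene median up to 0.23 with etoposide, 0.22 with alisertib, 0.25 with docetaxel, 0.12 with PF-06873600 and 0.13 with palbociclib. Under it 6271 genes rose and 2489 fell with etoposide, against 4305 and 4180 with TMM factors, and 39, 37, 35, 30 and 25 members were called with those 5 treatments, 1 of them (Parp9 with palbociclib) downward.

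**Figure D2:**
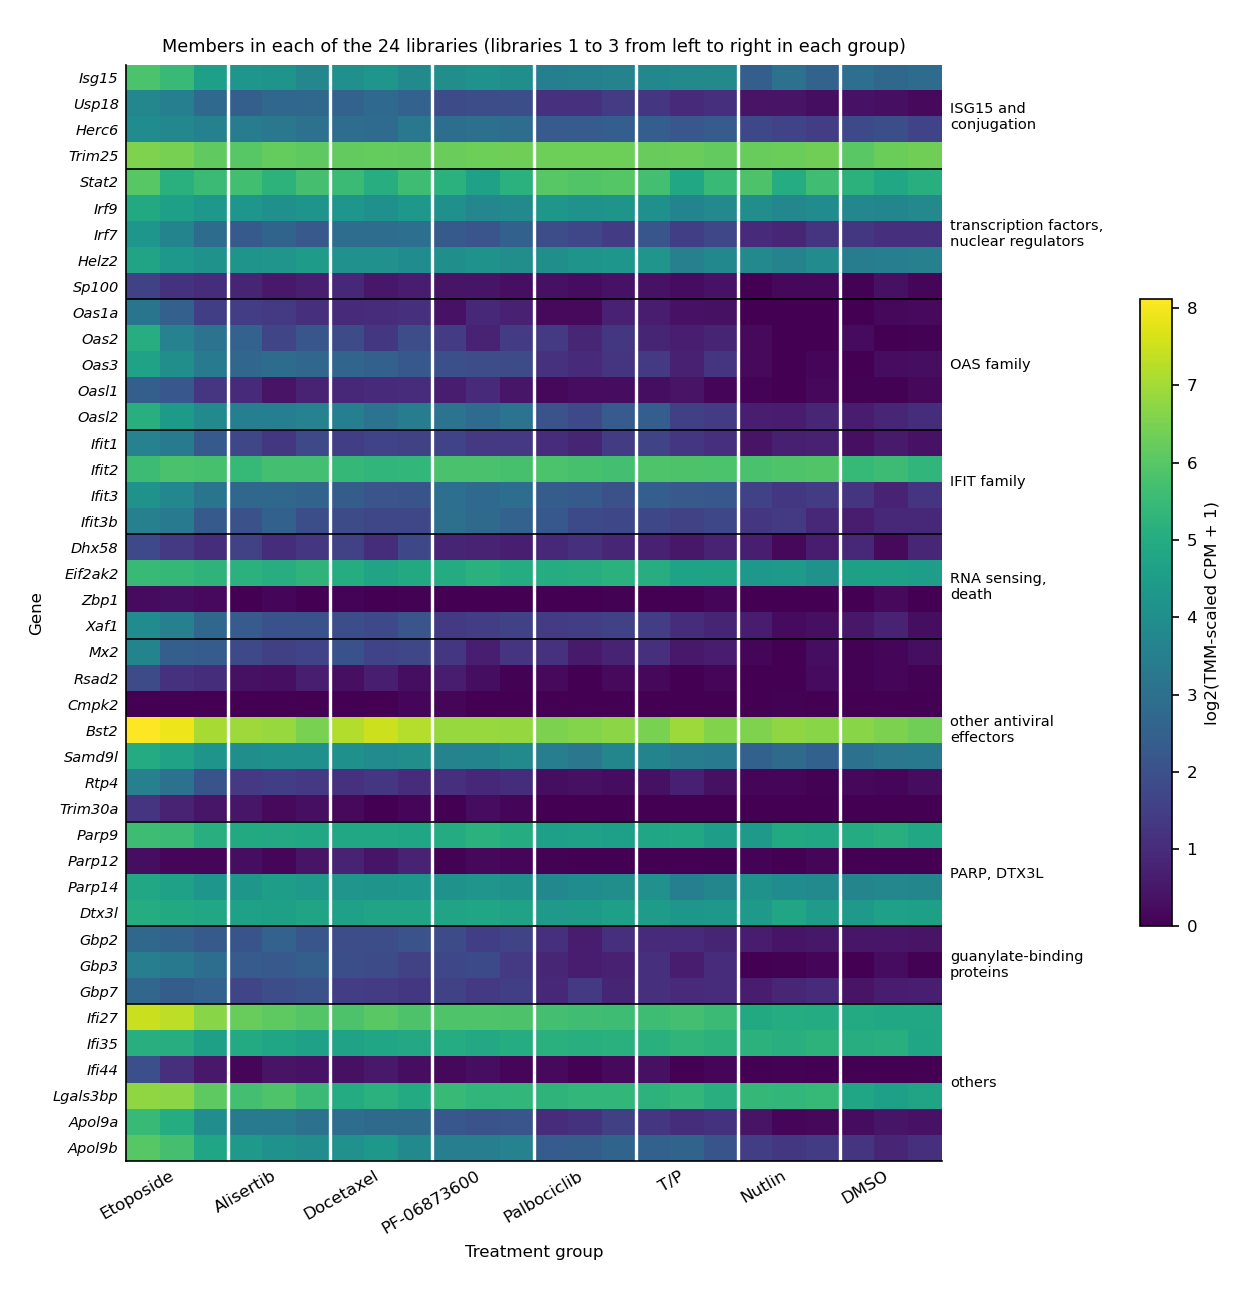
Level of each of the 42 members, by role (rows), in each of the 24 libraries (columns), as log2 of TMM-scaled CPM plus 1. The 3 etoposide columns at the left are the brightest in most rows, whereas rows such as Trim25, Ifit2 and Ifi35 have nearly the same shade in the 8 groups.

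**Figure D3:**
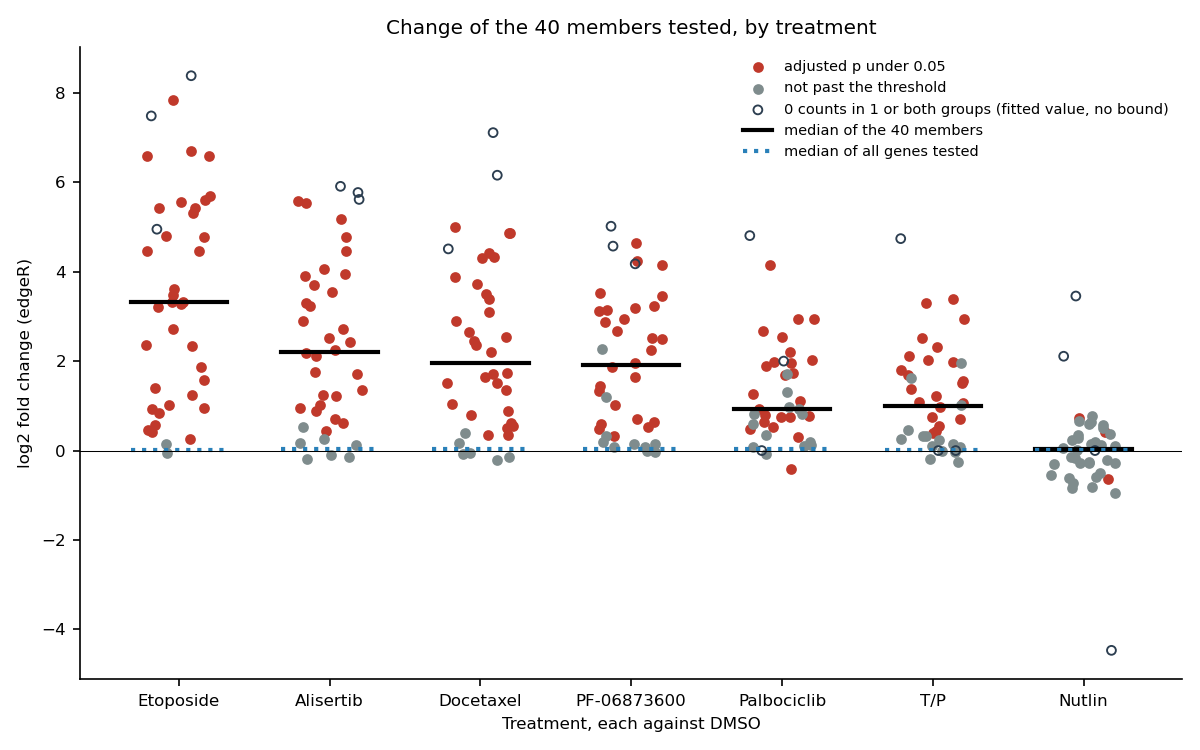
The log2 fold change of each of the 40 tested members (dots) for each treatment against DMSO, with the median of the members (black bar) and of all genes tested (blue dotted bar). The member median is 3.32 with etoposide and 0.04 with Nutlin; open dots mark members with 0 counts in 1 or both groups, whose fitted value is no bound (the open dot near the bottom for Nutlin is Oas1a).

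All 3 etoposide libraries lay above all DMSO libraries for 35 of the 40 members and below for 0 (28.6% and 28.3% of all genes). The numbers above and below were 34 and 0 with alisertib (29.1% and 27.4% of all genes), 33 and 0 with docetaxel (29.5% and 25.1%) and 31 and 0 with PF-06873600 (24% and 19.5%). They were 29 and 1 with palbociclib (26.7% and 23.5%), 26 and 0 with T/P (19.4% and 19.4%) and 7 and 2 with Nutlin (13% and 15.7%). With Nutlin most members overlapped DMSO, as did most of all genes tested.

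By how many of the 7 treatments raised them, 18 members rose with 6, always etoposide, alisertib, docetaxel, PF-06873600, palbociclib and T/P, and 1 (Lgals3bp) rose with all 7. At the other end, Trim25 and Ifi35 passed the threshold with none of the 7. The shares of all genes that rose with as many treatments were not counted, so these numbers have no background beside them. The group with the highest mean level was etoposide for 35 of the 40 tested members, against 17.7% of all genes tested. For the other 5 it was docetaxel (Parp12 and Dhx58), palbociclib (Stat2), T/P (Ifi35) and Nutlin (Ifit2).

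The counts per role that follow stand against the shares of all genes that rose, 27.7% with etoposide, 27.8% with alisertib, 26.5% with docetaxel, 17.9% with PF-06873600, 18.5% with palbociclib, 15.1% with T/P and 8.02% with Nutlin. Among the genes of ISG15 and its conjugation, 3 of 4 rose with each treatment except Nutlin. Isg15 itself encodes a ubiquitin-like protein that is attached to other proteins and also secreted. It stood at 56.0, 44.8 and 23.2 CPM in etoposide libraries 1, 2 and 3, against 6.89, 5.51 and 6.38 CPM in the DMSO libraries. All etoposide libraries lay above all DMSO libraries, and library 3 was the lowest of them. The log2 fold change was 2.72 ± 0.23 (SE; edgeR adjusted p = 5.67e-10), a 6.60-fold rise. Means of 16.0 ± 3.12 CPM with alisertib, 15.9 ± 2.21 CPM with docetaxel and 15.8 ± 1.03 CPM with PF-06873600 lay close together, above 13.2 ± 0.394 CPM with T/P and 10.8 ± 0.502 CPM with palbociclib, and Nutlin (5.60 ± 1.44 CPM) was near DMSO (6.26 ± 0.697 CPM; SD, n = 3 each). The palbociclib call (adjusted p = 0.0113) was lost without DMSO library 2 (edgeR adjusted p = 0.0619).

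Usp18, which removes ISG15 from proteins and dampens receptor signalling, had the largest change of this group. Its levels were 12.4, 10.3 and 5.79 CPM in the etoposide libraries and 0.305, 0.249 and 0.159 CPM in the DMSO libraries, with no overlap. That is a 39.5-fold rise (log2 5.30 ± 0.30, edgeR adjusted p = 8.05e-13). The rise was 21.9-fold with alisertib, 21.4-fold with docetaxel, 11.6-fold with PF-06873600, 5.78-fold with palbociclib and 5.00-fold with T/P, all past the threshold. Herc6, the main ISG15 ligase in mice, averaged 12.8 ± 1.84 CPM with etoposide and 2.49 ± 0.396 CPM in DMSO, and rose with the same 6 treatments. Trim25, a ubiquitin ligase of the RNA sensor RIG-I, averaged 82.9 ± 12.1 and 74.6 ± 8.70 CPM, with overlapping libraries (edgeR adjusted p = 0.141); it passed without etoposide library 3 (0.00892) and with total-count scaling (0.000942).

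The 5 transcription factors and nuclear regulators all rose with etoposide, by less than most other groups (median log2 1.01). Stat2, Irf9 and Helz2 are among the 13 members at 10 CPM or more in DMSO, whose median was 0.85. The 21 tested members under 1 CPM in DMSO had a median of 5.30. The part of the DMSO level in the smaller rise was not tested. Stat2, a subunit of the complex that binds the response element, stood at 64.1, 34.8 and 44.9 CPM in etoposide libraries 1, 2 and 3, against 36.0, 27.7 and 33.4 CPM in DMSO. Etoposide library 2 lay within the DMSO range, and the log2 fold change of 0.57 ± 0.23 only just passed (edgeR adjusted p = 0.0416). It did not pass without DMSO library 2 (edgeR adjusted p = 0.15), DMSO library 3 (0.0729), etoposide library 1 (0.314) or etoposide library 3 (0.0543). Palbociclib had the highest Stat2 mean, 61.3 ± 2.25 CPM, with the tightest libraries (62.8, 58.7 and 62.5 CPM; log2 0.92 ± 0.23 against DMSO, edgeR adjusted p = 0.00325). Library 2 was the lowest for Stat2 in all 8 groups.

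The same libraries were low for the nuclear long RNA Neat1, which stood at 881, 222 and 697 CPM in etoposide libraries 1, 2 and 3, 544, 449 and 609 CPM with palbociclib and 154, 42.7 and 172 CPM in DMSO. With the library number as a block, which the data allowed for alisertib against DMSO, Stat2 passed there too (edgeR adjusted p = 0.000309, against 0.0621 without the block, log2 0.52 ± 0.23). The part of nuclear RNA content in the Stat2 values was not tested.

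Sp100, a component of nuclear bodies, was low in all groups: 1.94, 1.26 and 1.07 CPM with etoposide and 0.0436, 0.290 and 0.0797 CPM in DMSO. The groups did not overlap, at a log2 fold change of 3.32 ± 0.52 (edgeR adjusted p = 8.77e-06). Irf7, the factor that drives the interferon genes themselves, rose 9.33-fold to 12.1 ± 6.02 CPM with etoposide, against 1.29 ± 0.164 CPM in DMSO (SD, n = 3 each). Irf9, the third part of the response-element complex, and Helz2, a helicase-like coactivator, averaged 23.9 ± 5.19 and 20.5 ± 4.60 CPM with etoposide, against 12.6 ± 0.467 and 10.2 ± 0.376 CPM in DMSO. With Nutlin none of the 5 passed in the fit of all libraries, but Stat2 passed, higher, without the low-count filter (edgeR adjusted p = 8.7e-06), without Nutlin library 2 (edgeR adjusted p = 0.0322) and without the libraries numbered 2 (0.00212).

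The active enzymes of the OAS family make short oligoadenylates that activate the RNA-degrading enzyme RNase L. The 5 family members listed here had a median log2 fold change of 5.57 with etoposide. All 5 rose with etoposide, alisertib, docetaxel and PF-06873600, 3 rose with palbociclib and T/P, and 0 with Nutlin. Oasl2, the most abundant of them by TPM in DMSO (0.359 ± 0.134 TPM), stood at 33.8, 20.5 and 13.8 CPM in etoposide libraries 1, 2 and 3, against 0.523, 0.829 and 1.08 CPM in DMSO. Oas2 had 32.3, 11.1 and 7.47 CPM with etoposide, against 0.174, 0 and 0.0399 CPM in DMSO, where it had 5 counts over the 3 libraries. Neither gene's libraries overlapped between the groups, and for both library 1 was the highest and library 3 the lowest with etoposide.

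The log2 fold change of Oasl2 was 4.79 ± 0.35 (edgeR adjusted p = 6.84e-11) and that of Oas2 7.84 ± 0.71 (edgeR adjusted p = 2.57e-09). With T/P, Oas2 averaged 0.726 ± 0.110 CPM and its call (edgeR adjusted p = 0.0138) was lost without DMSO library 2 (0.0664) or 3 (0.0581). Oas1a, Oas3 and Oasl1, which in mice limits translation of Irf7, averaged 4.80 ± 3.06, 16.3 ± 7.80 and 3.15 ± 1.56 CPM with etoposide, against 0.0946 ± 0.0838, 0.149 ± 0.130 and 0.0682 ± 0.0445 CPM in DMSO. Of the windows of read length (150 bases) in Oas1a transcripts, 32.4% also occur in Oas1g, so its counts may include reads of that paralog or lack shared ones.

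IFIT proteins bind RNA whose cap lacks the host's methyl marks. Ifit1 stood at 11.2, 9.14 and 3.87 CPM in etoposide libraries 1, 2 and 3, against 0.262, 0.497 and 0.319 CPM in DMSO, with no overlap (log2 4.47 ± 0.40, edgeR adjusted p = 2.28e-09). It was between 1.18 CPM (palbociclib) and 2.08 CPM (alisertib) on average in the other 5 groups where it rose, and 0.553 CPM with Nutlin. Ifit3 and Ifit3b averaged 12.5 ± 4.54 and 7.76 ± 3.46 CPM with etoposide, against 1.12 ± 0.327 and 0.771 ± 0.215 CPM in DMSO, and rose with the same 6 treatments. They share 18.5% and 16.0% of their read-length windows with each other, so reads may be split between them or dropped.

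Ifit2 followed another pattern than its neighbours in the cluster. It was the most abundant IFIT in DMSO, at 30.5 ± 1.81 TPM, and stood at 46.6, 54.8 and 52.8 CPM in etoposide libraries 1, 2 and 3, against 41.95, 46.6 and 39.7 CPM in DMSO. Etoposide library 1 was just below the highest DMSO library, and the fold was small (1.20-fold, edgeR adjusted p = 0.00412). Its highest levels were 54.7, 58.3 and 58.7 CPM with Nutlin, a 1.34-fold rise (log2 0.42 ± 0.07, edgeR adjusted p = 0.000213) with all libraries above DMSO, and 57.6, 56.6 and 54.9 CPM with T/P (1.32-fold). With docetaxel, at 41.3, 39.6 and 40.3 CPM, it was near DMSO (log2 -0.08 ± 0.07, adjusted p = 0.394). With alisertib the log2 fold change of 0.17 ± 0.07 did not pass (edgeR adjusted p = 0.0596), but did with the library number as a block (0.0394), without alisertib library 1 (0.009) and without DMSO library 2 (0.0257).

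Of the sensors and death genes, 3 of 4 were tested and all 3 rose with etoposide, alisertib and docetaxel. Eif2ak2 encodes PKR, the kinase that stops translation on binding double-stranded RNA. It stood at 43.7, 41.7 and 37.8 CPM in the etoposide libraries, against 23.4, 23.3 and 21.7 CPM in DMSO, a 1.80-fold rise (log2 0.85 ± 0.10, edgeR adjusted p = 1.65e-07). Its libraries were tight in both groups and did not overlap. With docetaxel the rise was 1.26-fold (edgeR adjusted p = 0.00759) and did not pass without DMSO library 3 (0.0535) or docetaxel library 1 (0.0628). With Nutlin all 3 libraries (19.2, 20.1 and 17.0 CPM) lay below DMSO, without passing (adjusted p = 0.0616, or 0.0471 without Nutlin library 2).

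Xaf1, which binds the caspase inhibitor XIAP, stood at 14.4, 10.5 and 5.62 CPM in etoposide libraries 1, 2 and 3, against 0.436, 0.704 and 0.239 CPM in DMSO. The groups did not overlap, at a log2 fold change of 4.46 ± 0.37 (edgeR adjusted p = 6.38e-10). With T/P (1.21 ± 0.515 CPM, edgeR adjusted p = 0.015) it did not pass without DMSO library 3 (0.0943) or T/P library 1 (0.121). Dhx58, which encodes the RNA sensor LGP2, averaged 1.70 ± 0.691 CPM with etoposide and 0.640 ± 0.412 CPM in DMSO, and its call with etoposide (edgeR adjusted p = 0.0116) was lost without DMSO library 2 (0.0732) or etoposide library 1 (0.0817). Zbp1, the sensor of Z-form nucleic acid, was not tested: it had 15 counts over the etoposide libraries and 4 over the DMSO libraries, all 4 of these in DMSO library 2.

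Bst2, or tetherin, holds budding virions at the cell surface and was the most abundant member by TPM in each of the 8 groups, at 768 ± 245 TPM with etoposide and 283 ± 23.7 TPM in DMSO (SD, n = 3 each). In CPM it stood at 277, 240.3 and 134 in etoposide libraries 1, 2 and 3, 143, 180.2 and 148 in the docetaxel libraries and 102, 89.9 and 81.8 in the DMSO libraries. Both treated groups lay wholly above DMSO, by 2.38-fold with etoposide (edgeR adjusted p = 2.2e-06) and 1.72-fold with docetaxel (edgeR adjusted p = 0.000728). With alisertib (119.9, 116 and 88.5 CPM) the libraries overlapped DMSO (log2 0.25 ± 0.18, edgeR adjusted p = 0.24, or 0.0269 with total-count scaling).

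Trim30a, a TRIM-family regulator found in mice, had 0 counts in all DMSO libraries, as in those of palbociclib, T/P and Nutlin. It had 1.33, 0.727 and 0.391 CPM in etoposide libraries 1, 2 and 3, or 65 counts in all. Against a floor of 3 counts over the DMSO group, that is at least 19.4-fold higher with etoposide (edgeR adjusted p = 0.00029), and at least 6.50-fold higher with alisertib (22 counts, adjusted p = 0.00683). All 3 etoposide libraries reached the count minimum, so Trim30a could enter the test through the group where it was high. The p-values do not allow for that entry. Mx2, a dynamin-like GTPase, averaged 6.70 ± 4.20 CPM with etoposide and 0.122 ± 0.103 CPM in DMSO. Rsad2 (viperin, which makes a chain-terminating nucleotide) and Rtp4 averaged 1.67 ± 0.904 and 6.98 ± 3.61 CPM with etoposide, against 0.0554 ± 0.0238 and 0.138 ± 0.0585 CPM in DMSO, and both rose. Cmpk2, the neighbour of Rsad2 and a mitochondrial nucleotide kinase, was not tested, with 0 counts with etoposide, 2 with docetaxel and 0 in DMSO.

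Samd9l, an inhibitor of viral translation, was called in both directions. It stood at 30.9, 24.5 and 17.5 CPM in etoposide libraries 1, 2 and 3, 4.73, 6.06 and 4.77 CPM in the Nutlin libraries and 7.24, 8.25 and 8.77 CPM in DMSO. The Nutlin libraries all lay below DMSO and the etoposide libraries all above. The rise with etoposide was 3.00-fold (log2 1.59 ± 0.16, edgeR adjusted p = 1.6e-08), and the log2 fold change with Nutlin was -0.64 ± 0.18 (edgeR adjusted p = 0.0133). The Nutlin call was lost without DMSO library 3 (edgeR adjusted p = 0.0561), Nutlin library 1 (0.0713) or Nutlin library 3 (0.0656).

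The PARP group attaches ADP-ribose to proteins, and Dtx3l is the ubiquitin ligase that pairs with Parp9. Parp9 stood at 47.7, 45.4 and 33.8 CPM in etoposide libraries 1, 2 and 3, 22.8, 23.98 and 22.9 CPM with palbociclib and 31.1, 33.9 and 27.7 CPM in DMSO. Etoposide library 3 was within the DMSO range, and the 3 palbociclib libraries all lay below it. The log2 fold changes were 0.45 ± 0.12 with etoposide (edgeR adjusted p = 0.00348) and -0.41 ± 0.13 with palbociclib (edgeR adjusted p = 0.0139); the palbociclib call was lost without DMSO library 2 (0.052). Parp9 and Dtx3l overlap by 681 bases on opposite strands, and the strand setting of the counting is not given in the sources used here, so reads of that stretch cannot be told apart. Dtx3l averaged 29.8 ± 1.40 CPM with etoposide and 22.4 ± 2.55 CPM in DMSO.

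Parp12 had its highest level with docetaxel. It had 0 counts in DMSO and in T/P, and stood at 0.704, 0.384 and 0.767 CPM in the docetaxel libraries (85 counts in all), 0.225, 0.0758 and 0.353 CPM with alisertib (18 counts) and 0.229, 0.0765 and 0.107 CPM with etoposide (11 counts). All docetaxel libraries lay above all etoposide and alisertib libraries. Against the 3-count floor it was at least 15.7-fold higher with docetaxel (edgeR adjusted p = 3.19e-05), 5.32-fold with alisertib (0.0015) and 3.29-fold with etoposide (0.00677). Parp12 entered the test only through the docetaxel libraries, where it was high. The p-values do not allow for that entry. With PF-06873600 (6 counts) it passed only with the library number as a block or total-count scaling (edgeR adjusted p = 0.0356 and 0.0463, against 0.0503). Parp14 averaged 23.7 ± 5.01 CPM with etoposide and 12.2 ± 0.243 CPM in DMSO, and rose with 4 treatments.

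The guanylate-binding proteins are GTPases that attack the vacuoles of intracellular microbes, and all 3 listed here rose with 6 treatments. Gbp3 stood at 10.1, 8.80 and 6.61 CPM in etoposide libraries 1, 2 and 3, against 0, 0.207 and 0.0399 CPM in DMSO, where it had 6 counts in all (log2 6.60 ± 0.44, edgeR adjusted p = 1.5e-11). Gbp2, the most abundant of the 3 by TPM in DMSO (0.432 ± 0.0179 TPM), stood at 5.56, 4.94 and 3.95 CPM with etoposide, against 0.392, 0.414 and 0.359 CPM in DMSO, a 12.3-fold rise (edgeR adjusted p = 7.58e-11). Neither overlapped between the groups. For Gbp2 the means were 4.81 ± 0.815, 3.89 ± 0.897, 2.91 ± 0.262 and 2.22 ± 0.385 CPM with etoposide, alisertib, docetaxel and PF-06873600, 0.946 ± 0.317 and 0.914 ± 0.0947 CPM with palbociclib and T/P, 0.460 ± 0.0806 CPM with Nutlin and 0.389 ± 0.0280 CPM in DMSO.

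Of the remaining 6 members, 5 rose with etoposide. Ifi27, a small membrane protein and the second most abundant member by TPM, stood at 178, 157 and 102 CPM in etoposide libraries 1, 2 and 3, against 30.4, 27.6 and 27.9 CPM in DMSO. It rose 5.09-fold (log2 2.35 ± 0.13, edgeR adjusted p = 4.21e-13), and by 2.37-fold with alisertib, 2.07-fold with docetaxel, 2.01-fold with PF-06873600, 1.71-fold with palbociclib and 1.68-fold with T/P. Ifi44, a cytoplasmic antiviral protein, had 0 counts in DMSO and 2.93, 1.19 and 0.462 CPM in etoposide libraries 1, 2 and 3 (121 counts), at least 36.1-fold above the 3-count floor (edgeR adjusted p = 1.45e-05). Like Trim30a, Ifi44 could enter the test through the etoposide libraries, and its p-values do not allow for that entry. Its etoposide libraries differed 6.35-fold between library 1 and library 3, the widest ratio among the members at 1 CPM or more. With PF-06873600 (11 counts) its call was marginal (edgeR adjusted p = 0.0479) and was lost without any 1 of the DMSO libraries (0.1, 0.102 and 0.109) or without PF-06873600 library 1 (0.066) or 2 (0.14).

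Lgals3bp, a secreted glycoprotein that binds galectins, was the only member called higher with all 7 treatments. It stood at 107, 104 and 68.0 CPM in etoposide libraries 1, 2 and 3, 41.8, 40.2 and 42.8 CPM in the Nutlin libraries and 27.3, 23.1 and 25.5 CPM in DMSO, with neither treated group overlapping DMSO. Log2 fold changes were 1.88 ± 0.13 with etoposide (edgeR adjusted p = 1.48e-11) and 0.72 ± 0.13 with Nutlin (edgeR adjusted p = 0.000206). The smallest was 0.35 ± 0.13 with docetaxel (edgeR adjusted p = 0.0253), which was lost without DMSO library 2 (0.139), DMSO library 3 (0.0638) or docetaxel library 2 (0.114). Apol9a and Apol9b, apolipoprotein L paralogs, averaged 29.9 ± 14.1 and 47.8 ± 18.9 CPM with etoposide, against 0.303 ± 0.0786 and 1.11 ± 0.251 CPM in DMSO. They share 7.10% and 22.5% of their read-length windows with each other, so their split is uncertain. Ifi35, an adaptor-like protein abundant in DMSO, averaged 29.8 ± 5.29 and 30.8 ± 3.54 CPM and did not pass (edgeR adjusted p = 0.728).

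The 3 etoposide libraries did not rise by the same amount. Library 1 was the highest of the 3 for 39 of the 40 tested members and library 3 the lowest for 36, whereas over all genes tested those libraries were highest and lowest for 29.7% and 32.6%. The member levels summed to 1456, 1212 and 837 CPM in etoposide libraries 1, 2 and 3, to between 513 and 711 CPM in the libraries of the other 6 treatments, and to between 452 and 468 CPM in DMSO. The ratio of library 1 to library 3 had a median of 2.11 over the 38 members that averaged at least 1 CPM (0.883 to 6.35, above 1 for 37), against 0.995 over 12141 genes at that level. Library 3, the lowest, still summed above every library of the other groups. The level of Ifnab, the 1 interferon ligand tested, was 0.381, 0.0765 and 0.0711 CPM in etoposide libraries 1, 2 and 3. These levels rest on few counts, given below, and those of libraries 2 and 3 were close. The part of Ifnab in the difference between the libraries was not tested.

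**Figure D4:**
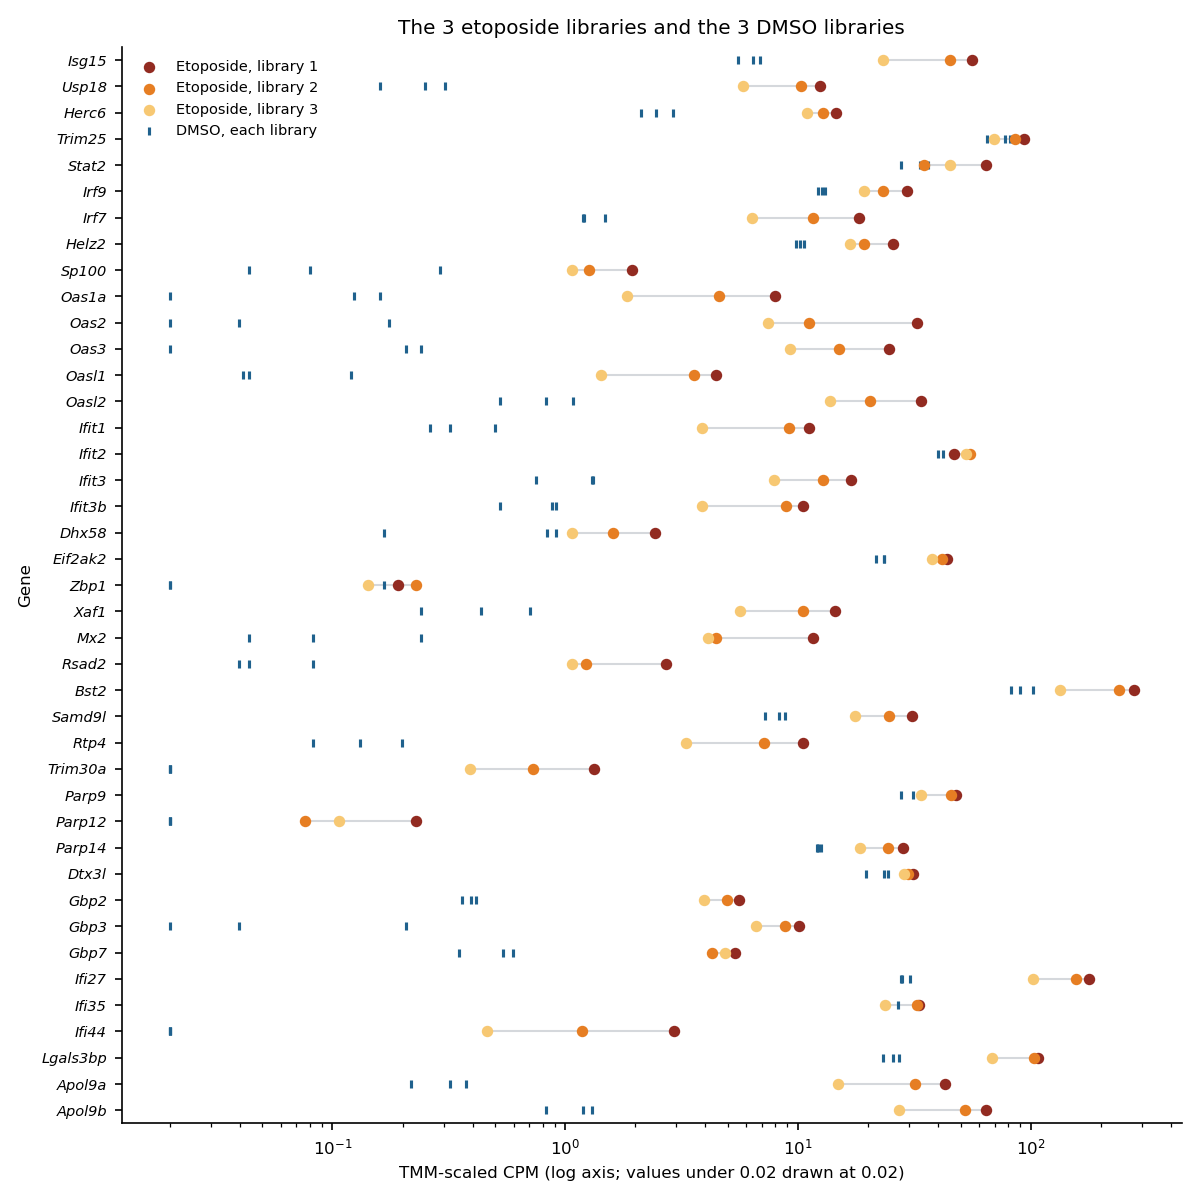
Level of 41 members (rows; Cmpk2, at 0, is left out) in the 3 etoposide libraries (dots, darkest for library 1) and the 3 DMSO libraries (blue ticks), in TMM-scaled CPM on a log axis, with values under 0.02 drawn at 0.02. Library 1 lies to the right of library 3 in nearly every row, and both lie to the right of DMSO except for members such as Trim25 and Ifi35.

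Etoposide was set directly against the 2 other treatments with the most members raised. Against alisertib 29 of 40 members were higher with etoposide and 0 lower (6.9% and 7.75% of all genes), at a median log2 difference of 1.07 (all genes -0.01). For 29 members all 3 etoposide libraries lay above all 3 alisertib libraries, and for 0 below, as for 14.3% and 14.3% of all genes. Oas2, Ifit1 and Rtp4 were among those higher with etoposide, by 2.26 ± 0.42, 1.95 ± 0.32 and 2.07 ± 0.31 on the log2 scale (SE; edgeR adjusted p = 0.000955, 0.000299 and 0.000102). The count of 29 rests partly on the highest library: without etoposide library 1 it was 16. Members that did not pass include Stat2 (log2 0.05 ± 0.23), Dhx58 (0.19 ± 0.41) and Gbp2 (0.31 ± 0.21). Sp100 (log2 1.21 ± 0.42, edgeR adjusted p = 0.0535) passed with the library number as a block (0.0266) or without etoposide library 3 (0.0495).

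Against docetaxel 34 members were higher with etoposide and 1, Parp12, lower (14.2% and 16.2% of all genes), at a median log2 difference of 1.30 (all genes -0.05). All 3 etoposide libraries lay above docetaxel for 31 members and below for 1 (18.8% and 23.1% of all genes). Without etoposide library 1 the count of higher members was 24. The largest differences among members above 1 CPM in both groups were those of Oas2 (2.84 ± 0.43, edgeR adjusted p = 2.51e-05), Rtp4 (2.50 ± 0.31, 2.03e-06) and Apol9a (2.27 ± 0.25, 2.49e-07). Parp12 had a log2 difference of -2.16 ± 0.59 (edgeR adjusted p = 0.00854), with all etoposide libraries below all docetaxel libraries, and it did not pass without etoposide library 2 (0.0503) or with DESeq2 (adjusted p = 0.0567). Parp12 entered the edgeR test only through the docetaxel libraries, and its p-value does not allow for that entry. Trim25 and Dtx3l, at log2 differences of 0.22 and 0.24, did not pass (edgeR adjusted p = 0.0585 and 0.0534) but did with the library number as a block (0.0345 and 0.0303), and Trim25 also did without etoposide library 3 (0.00352).

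**Figure D5:**
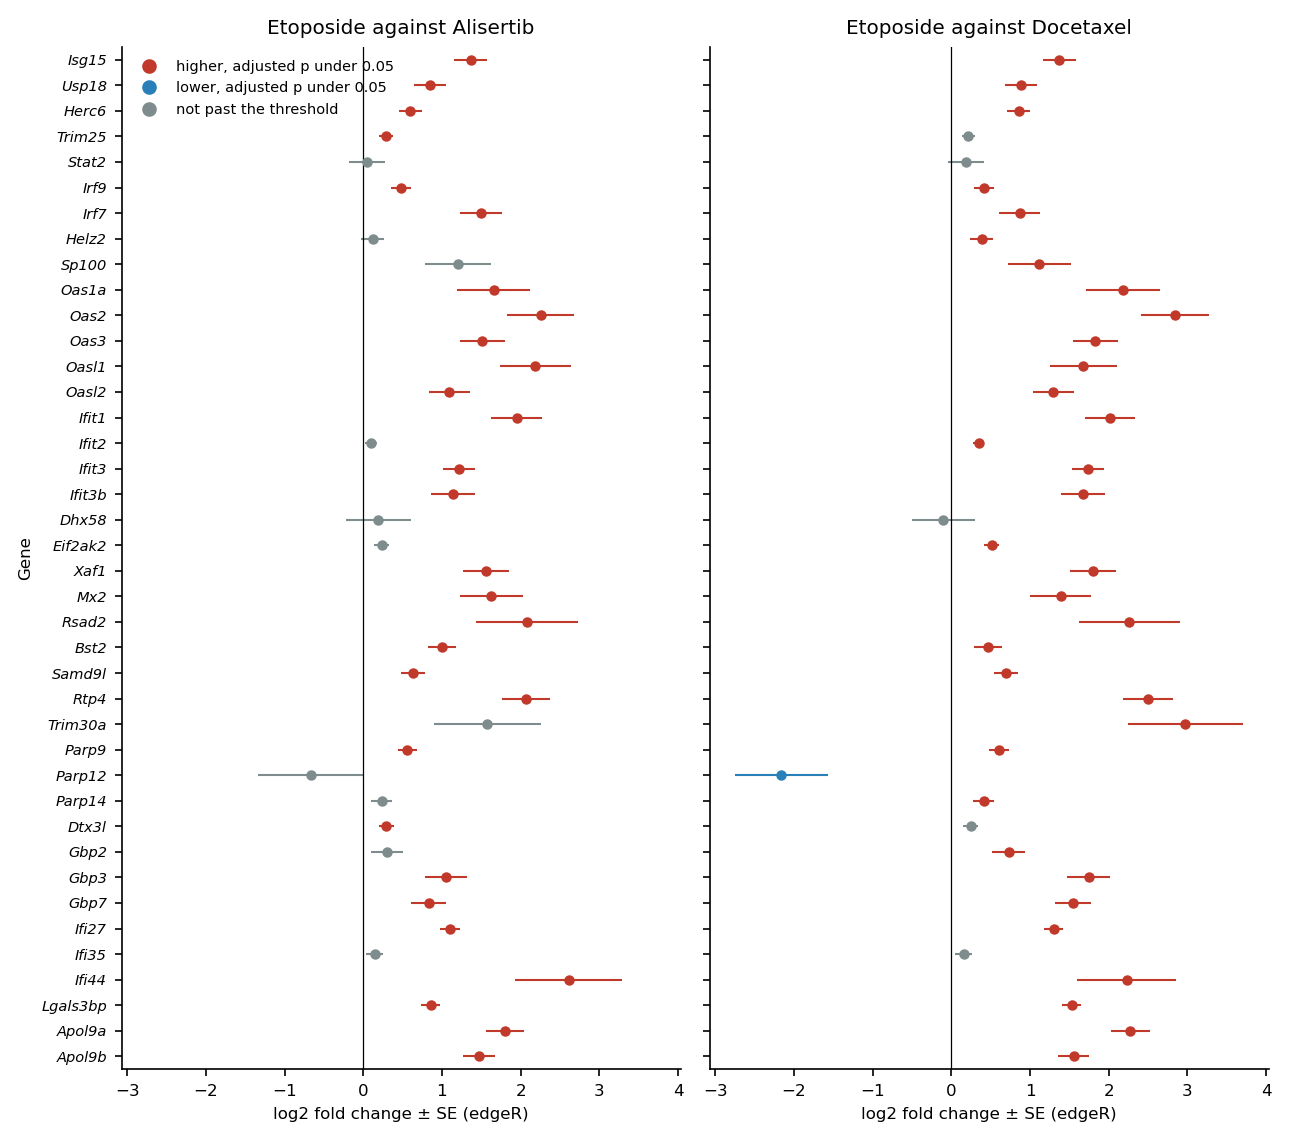
Log2 difference of each of the 40 tested members between etoposide and alisertib (left) and between etoposide and docetaxel (right), with bars of 1 SE. Red dots passed the threshold upward (29 and 34 members), grey dots did not pass, and Parp12 is the 1 blue dot, lower with etoposide than with docetaxel.

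Docetaxel and alisertib both disturb mitosis, and their member levels lay closer to each other than to those with etoposide. The part of that shared action was not tested. Between the 2 drugs 1 member was higher with docetaxel and 3 lower (8.62% and 8.81% of all genes), at a median log2 difference of -0.18 (all genes 0.03). The log2 difference was above 0 for 11 of the 40 tested members. The docetaxel libraries all lay above for 3 members and all below for 14 (17.7% and 15.8% of all genes). Bst2 was the higher one (143, 180.2 and 148 CPM with docetaxel, 119.9, 116 and 88.5 CPM with alisertib, log2 0.54 ± 0.17, edgeR adjusted p = 0.0347). Lgals3bp (-0.68 ± 0.12, 0.000505), Ifit2 (-0.25 ± 0.07, 0.0212) and Gbp7 (-0.72 ± 0.23, 0.0354) were lower. With the library number as a block the count was 8 in all, with Ifit3, Eif2ak2, Gbp3 and Parp12 added. It was 2 without alisertib library 2 or docetaxel library 3, and 1 without alisertib library 3 or docetaxel library 2. Lgals3bp was called in each of those 4 fits, Bst2 was lost in all 4 (edgeR adjusted p = 0.0617, 0.056, 0.181 and 0.153), Gbp7 also without docetaxel library 1 (0.0744), and Ifit2 in all but the fit without docetaxel library 3.

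PF-06873600 inhibits a wider set of cyclin-dependent kinases than palbociclib, and 16 members were higher with it and 1 lower (14.4% and 11.7% of all genes), at a median log2 difference of 0.52 (all genes 0.01). All 3 PF-06873600 libraries lay above for 19 members and below for 4 (26.1% and 23.9% of all genes). The doses differed, 500 nM for PF-06873600 and 1 µM for palbociclib. Gbp3 stood at 2.38, 2.57 and 1.63 CPM with PF-06873600, against 0.817, 0.539 and 0.660 CPM with palbociclib (log2 1.70 ± 0.34, edgeR adjusted p = 0.000875). Rtp4, Oasl2 and Usp18 differed by 2.07 ± 0.43, 1.13 ± 0.30 and 1.00 ± 0.24 (edgeR adjusted p = 0.00119, 0.00768 and 0.00431). Stat2 went the other way, at 35.8, 23.8 and 35.5 CPM with PF-06873600, against 62.8, 58.7 and 62.5 CPM with palbociclib (log2 -0.95 ± 0.23, edgeR adjusted p = 0.00409). Without the libraries numbered 2 of all groups, 9 members were called in all.

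Adding trametinib to palbociclib left 0 members past the threshold in either direction in the edgeR fit of all libraries and in DESeq2 (1.64% and 2.47% of all genes rose and fell in edgeR), at a median log2 difference of -0.05. The T/P libraries all lay above for 2 members and below for 5 (13.9% and 17.1% of all genes). At an unadjusted p under 0.05 there were 3 of the 40, all lower with T/P: Irf9 (-0.39 ± 0.13), Stat2 (-0.59 ± 0.23) and Eif2ak2 (-0.27 ± 0.10). For all genes the share at that unadjusted cut was not counted. Ifit1 had 2.16, 1.44 and 1.13 CPM with T/P, against 1.02, 0.788 and 1.73 CPM with palbociclib, and Ifi27 had 47.6, 51.2 and 45.4 CPM, against 50.9, 48.5 and 47.7 CPM. For both genes the groups overlapped. Stat2 passed with only these 2 groups in the fit (edgeR adjusted p = 0.0476), and Stat2 and Irf9 without the low-count filter (2.06e-07 and 0.0475), all lower with T/P. Without T/P library 1, 1 member passed (Eif2ak2, edgeR adjusted p = 0.03).

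With Nutlin the 3 members that passed are those already described: Ifit2 and Lgals3bp rose and Samd9l fell. A further 5 had an unadjusted p under 0.05, with Stat2 and Helz2 above DMSO and Eif2ak2, Parp9 and Oas1a below. The share of all genes at that unadjusted cut was not counted, so no result is drawn from these 5. Oas1a had 0 counts over the Nutlin libraries and 7 over the DMSO libraries. Without Nutlin library 2 the number of calls was 5.

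Other genes of the pathway were counted from further lists. Of 20 interferon ligand genes 1 was tested, Ifnab, an interferon-alpha-like gene: it had 14 counts with etoposide, 9 with alisertib, 58 with docetaxel and 0 in DMSO, and rose with etoposide (edgeR adjusted p = 0.0223) and docetaxel (0.0025). It entered the test chiefly through the docetaxel libraries, where it was highest, and the p-values do not allow for that entry. All 20 together had 28 counts with etoposide, 19 with alisertib, 116 with docetaxel (at the greatest depth) and 1 in DMSO, or 0.142 to 0.610 CPM per library with etoposide, 0.577 to 1.35 CPM with docetaxel and at most 0.0399 CPM in DMSO. The ligand levels of the etoposide and docetaxel libraries overlapped, while their summed member levels did not, and the link between ligand and member levels was not tested. Ifnb1, the interferon-beta gene, had 1 count with etoposide, 2 with docetaxel and 0 in DMSO. Of 9 receptor and kinase genes 8 were tested, 4 rose and 2 fell with etoposide (27.7% and 26.9% of all genes), at a median log2 fold change of 0.16. Ifngr2, a chain of the interferon-gamma receptor, rose most (11.5-fold, to 5.15 ± 0.589 CPM, against 0.449 ± 0.180 CPM in DMSO, edgeR adjusted p = 1.62e-09), and Ifnar1, a chain of the type I receptor, fell (1.18-fold lower, 0.00222).

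Of 41 further interferon-stimulated genes 34 were tested, 24 rose and 3 fell with etoposide (27.7% and 26.9% of all genes), at a median log2 fold change of 1.63. Ifitm3, which blocks viral fusion, rose 16.6-fold to 34.2 ± 12.9 CPM, against 2.06 ± 0.187 CPM in DMSO, and Ddx58, which encodes RIG-I, rose 2.84-fold (edgeR adjusted p = 1.14e-12 and 2.47e-10). The 3 that fell were Isg20, an exonuclease (91.6 CPM with etoposide, 193 CPM in DMSO, 2.10-fold lower), Ube2l6, the conjugating enzyme for ISG15 (1.33-fold lower), and Ifitm2 (1.18-fold lower). Of 14 GTPase genes best known as targets of interferon-gamma 9 were tested, 8 rose and 1 fell with etoposide (against the same shares of all genes), at a median log2 fold change of 2.02. Igtp and Irgm2 rose 4.06-fold and 4.53-fold (edgeR adjusted p = 4.29e-09 and 3.55e-10), and Tgtp1 fell (1.66-fold lower, 1.88e-06).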

How the data were processed

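Total RNA of 24 libraries (8 groups of 3) was sequenced in pairs. Per the submitters' processing notes, fastp, STAR, featureCounts and DESeq2 were used with the mm10 genome; versions and the strand setting are not given in the sources used here. The authors deposited whole-number counts per gene, not normalized, and TPM values (24621 genes), which are scaled to transcript length and library total. Counts were tested with edgeR 4.0.16 in R 4.3.3 (quasi-likelihood, 1 fit of all 24 libraries, TMM factors, filterByExpr with a minimum count of 10 and total of 15, Benjamini-Hochberg over 15527 genes, adjusted p under 0.05); the standard error is the log2 fold change over the square root of F. The filter's minimum came to 0.393 CPM in 3 libraries, and the genes kept held 99.93% of counts.

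A group at 0 was given a floor of 3 counts over its libraries, which covers counting error only. The members and all lists were chosen with earlier results of these data known. Values in every library are given, per role, for the member of highest mean TPM over all libraries and the called member with the largest change against DMSO, and for members called in both directions; Lgals3bp was added after its values were seen. A few marker and pathway genes outside the member list are not reported here. Promoters came from RefSeq (GRCm38.p6), gene positions from GENCODE vM21.

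Libraries of the same number deviated together (every r over 0.1) in 6 of 12 comparisons: etoposide, alisertib and PF-06873600 against DMSO, etoposide against alisertib, etoposide against docetaxel, and docetaxel against alisertib. The labels do not say what a number marks. As alternatives, counts were scaled by RLE factors or by library totals alone, tested with DESeq2 1.42.0, left unfiltered or filtered at 1 CPM in 3 libraries, fitted with only both groups compared or with the library number as a block, and fitted without each library or without those numbered 2. TPM values were tested with limma 3.58.1 on log2(TPM + 1). Replicate pairs differed beyond sampling noise in every group, so none was counted as a repeat.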

Additional observations from a re-analysis of the deposited data

How the results depend on the processing

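No member reversed its direction past the threshold under any alternative run. The number of members called moved by over 1.5 times in these cases, and the cause was not tested. Some of these settings leave fewer libraries or add genes. For T/P against DMSO it was 22, and 14 with limma on log2(TPM + 1). For Nutlin against DMSO it was 3, and 5 without the low-count filter or with the replicate block. For docetaxel against alisertib it was 4, 8 without the filter, 8 with the block and 1 without the libraries numbered 2. For PF-06873600 against palbociclib it was 17, and 9 without the libraries numbered 2. For T/P against palbociclib it was 0, 2 without the filter, 1 with only the 2 groups compared and 3 with the block (Stat2, Irf9 and Eif2ak2, edgeR adjusted p = 0.00033, 0.00919 and 0.0433). Leaving out 1 library gave 36 to 38 for etoposide, 32 to 34 for alisertib, 30 to 33 for docetaxel, 25 to 29 for PF-06873600, 23 to 25 for palbociclib, 18 to 23 for T/P and 2 to 5 for Nutlin against DMSO. It gave 16 to 31 for etoposide against alisertib, 25 to 37 for etoposide against docetaxel, 1 to 4 for docetaxel against alisertib, 13 to 15 for PF-06873600 against palbociclib and 0 to 1 for T/P against palbociclib. In the comparisons whose library numbers pair, the block changed no other count by as much. Over all genes, etoposide against alisertib gave 2275 calls, 3630 with the block, 1203 with only the 2 groups, 1253 without the libraries numbered 2, 1140 without alisertib library 3, 1455 without etoposide library 1 and 1499 without etoposide library 2. Nutlin against DMSO gave 3011, 1699 with only the 2 groups and 2002 without Nutlin library 1. Docetaxel against alisertib gave 2707, and 1804 without alisertib library 3. T/P against palbociclib gave 637, 2504 with the block, 1148 with DESeq2, 317 with limma, 1181 without the filter, 1165 with only the 2 groups, 411 without the libraries numbered 2, 154 without T/P library 2, and 230, 249 and 238 without palbociclib library 1, 2 and 3. Depth limits the members under 1 CPM in DMSO, of which Trim30a, Parp12 and Ifi44 have only a lower bound.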

Other observations

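Several members lie next to each other in the genome, and neighbours did not always move alike. Rsad2 and Cmpk2 lie 12752 bases apart on chromosome 12, where Rsad2 averaged 1.67 ± 0.904 CPM with etoposide and 0.0554 ± 0.0238 CPM in DMSO (SD, n = 3 each) and Cmpk2 had 0 and 0 counts. In the cluster on chromosome 19, Ifit2 is 7112 bases from Ifit3, and rose 1.20-fold with etoposide, against 11.1-fold for Ifit3, 9.95-fold for Ifit3b and 22.1-fold for Ifit1 (edgeR adjusted p = 0.00412, 3.52e-11, 1.22e-08 and 2.28e-09). The 3 guanylate-binding genes on chromosome 3 (Gbp7, Gbp3 and Gbp2) and the pair Oasl2 and Oasl1 on chromosome 5, 11006 bases apart, all rose.

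The further pathway genes outside the member list were also counted with the other treatments. Of the 34 tested further interferon-stimulated genes 24 rose and 3 fell with alisertib (27.8% and 26.1% of all genes), 25 and 1 with docetaxel (26.5% and 22.5%), 19 and 1 with PF-06873600 (17.9% and 14.1%), 14 and 4 with palbociclib (18.5% and 17.4%), 11 and 4 with T/P (15.1% and 14.6%), and 1 and 2 with Nutlin (8.02% and 11.4%). Of the 9 tested GTPase genes 8 rose and 1 fell with alisertib, 8 and 1 with docetaxel, 6 and 0 with PF-06873600, 1 and 1 with palbociclib, 4 and 0 with T/P, and 0 and 1 with Nutlin, against the same shares of all genes.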
